A study of Mus musculus with 12 samples.

Results

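The genes described here are the 36 immediate early and heat shock genes of a mouse mammary RNA sequencing study, taken by symbol from the deposited table of 27179 genes. All 36 passed the filter on low counts, which kept 14903 genes. They are 9 members of the AP-1 family and its partners, 13 other factors, 6 feedback regulators of signalling and mRNA stability, and 8 heat shock genes. The list was chosen by gene name, with earlier results of these data known. The study profiled basal and luminal epithelial cells from the mammary glands of female mice. In the knockouts, of strain MMTV-cre/Foxp1(fl/fl), a Cre driven by the mouse mammary tumour virus promoter acts on floxed Foxp1, the gene of a forkhead transcription factor. The controls, of strain Foxp1(fl/fl), carried the floxed allele and their labels name no Cre. The sources used here give neither the age of the mice nor the means of separating the cells. There were 3 biological replicates each of basal knockout, basal control, luminal knockout and luminal control cells, and values below are listed in the order of replicates 1, 2 and 3.

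Immediate early genes are transcribed within minutes of a stimulus, without new protein synthesis, when kinase cascades activate factors already bound at their promoters. Among these, serum response factor with its partners binds the CArG box and CREB binds the cyclic AMP response element. Their products include the Fos and Jun proteins, which pair to form AP-1, and phosphatases such as Dusp1 that turn the signal off again. Heat shock genes encode chaperones and are switched on by heat shock factor 1 when proteins unfold. Both sets are known to respond to tissue dissociation and cell sorting, in mammary and in other tissues.

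Promoter windows of 250 bases before each transcription start were read from RefSeq sequence (build GRCm38.p6), and 29 of the 36 genes had at least 1 window. The cyclic AMP response element TGACGTCA, which reads the same on both strands, was present in 3 of these 29 genes, against 1.77% of 27025 genes with a window. A CArG box, a run of A and T between CC and GG, was present in 3 of the 29, against 1.62% of all genes. A heat shock element of alternating units (GAANN, then TTCNN, then GAA), searched on both strands, was in 0 of the 29 and in 0.514% of all genes, which says only that these letters are not in these windows. The stretches around the matches are shown because members that move together are described below, and they differ in which element they carry. Each is written 5′ to 3′ on the strand of the gene, with the matched bases in capitals. For the CArG box they are Egr2 (chr10:67537767-67537836, plus strand), Dusp5 (chr19:53529033-53529112, plus strand, with 2 adjacent boxes) and Zfp36 (chr7:28379247-28379316, minus strand).
Egr2: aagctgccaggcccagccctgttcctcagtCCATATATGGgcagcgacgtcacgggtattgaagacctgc
Dusp5: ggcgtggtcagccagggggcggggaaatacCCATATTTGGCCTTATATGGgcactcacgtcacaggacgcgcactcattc
Zfp36: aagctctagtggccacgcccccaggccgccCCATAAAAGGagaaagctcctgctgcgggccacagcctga

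For the cyclic AMP response element they are Btg2 (chr1:134079284-134079351, minus strand), Dusp1 (chr17:26508578-26508645, minus strand) and Maff (chr15:79347461-79347519, plus strand).
Btg2: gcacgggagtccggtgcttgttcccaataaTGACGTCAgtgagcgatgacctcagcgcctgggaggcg
Dusp1: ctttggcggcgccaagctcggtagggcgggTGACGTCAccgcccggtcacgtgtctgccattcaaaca
Maff: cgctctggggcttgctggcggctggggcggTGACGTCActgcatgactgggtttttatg

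Libraries held 9769361 to 15449513 counts. Foxp1, read first as the targeted gene, stood at 212, 193 and 284 CPM (counts scaled to library size) in basal knockout-labelled libraries and at 221, 213 and 160 CPM in basal controls. Luminal knockout-labelled libraries held 161, 150 and 155 CPM and luminal controls 82.3, 62.0 and 78.2 CPM (log2 fold 1.07, SE 0.19, adjusted p = 0.0161, edgeR quasi-likelihood test). The count covers all exons of Foxp1, deleted or not, so it does not show that the deletion is missing, but it goes against the label, and directions between genotypes below rest on the labels alone. The cell type labels fit the markers: all 8 basal markers were lower in luminal than in basal cells of both genotypes, and all 9 luminal markers were higher, with 8 of the 9 called among knockout-labelled libraries and 9 of 9 among controls. Defining T and B cell markers were at or near 0, with summed levels of at most 14.2 CPM.

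All 36 genes were expressed in every library, and together they held a large share of all counts. The share was 3.62%, 4.13% and 3.20% in basal knockout-labelled libraries, against 3.47%, 3.78% and 1.77% in basal controls. In luminal cells it was 2.57%, 3.10% and 2.23% in knockout-labelled libraries, against 3.55%, 5.34% and 2.35% in controls. Control replicate 3 of both cell types stood low and luminal control replicate 2 stood high. Luminal control replicate 2 also held 3.68% of its counts in Rn45s, where luminal control replicates 1 and 3 held 0.151% and 0.256%. Libraries of the other groups held 0.0626% to 0.314%. The part of this in its high member share was not tested. Fos, the founding member of the AP-1 family, was the most abundant member per kilobase, at 2321 CPM per kilobase in basal knockout-labelled cells, 1849 in basal controls, 1535 in luminal knockout-labelled cells and 2433 in luminal controls. Those levels placed it between rank 8 and rank 21 of all genes tested. Dusp2, a nuclear phosphatase that inactivates MAP kinases, was the least abundant, at 8.73, 14.0, 2.41 and 4.47 CPM per kilobase in the same 4 groups.

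**Figure D1:**
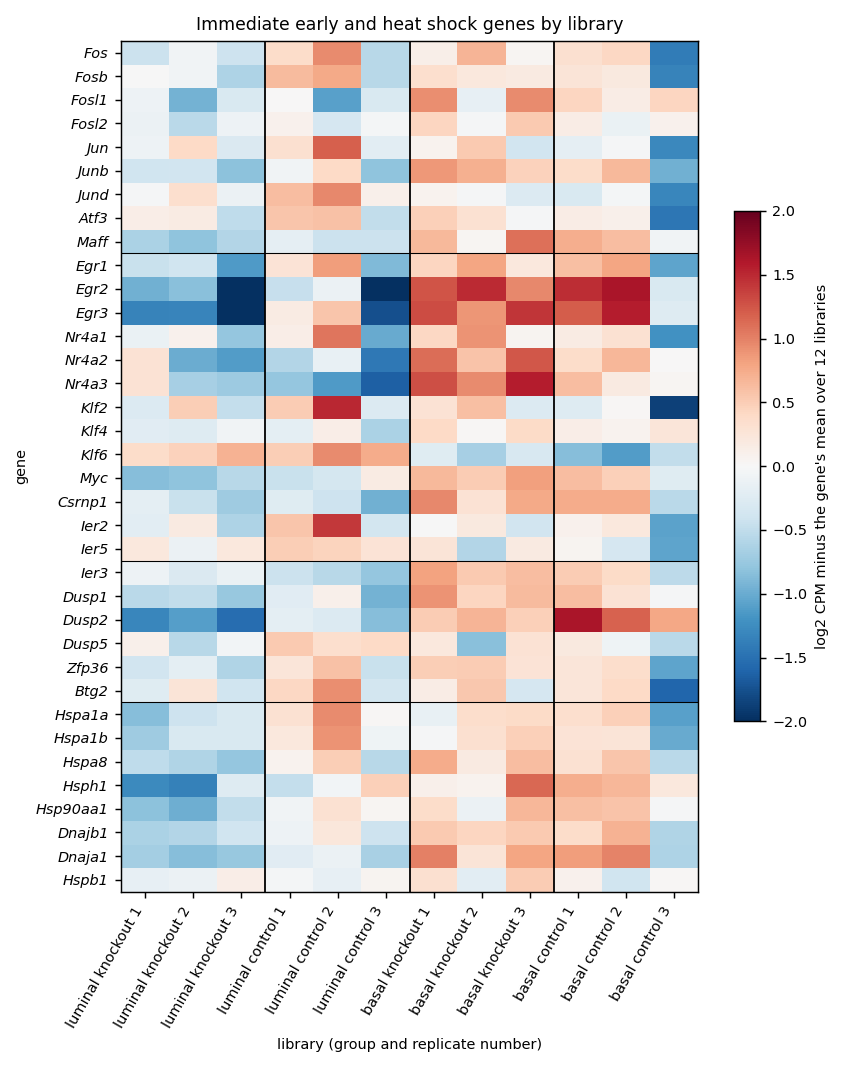
Level of each of the 36 genes (down the page, in the order AP-1 family, other factors, feedback regulators, heat shock genes) in each of the 12 libraries (across), as log2 CPM minus the mean of the gene over the 12 libraries, from blue (lower) to red (higher). Basal control replicate 3 is low across most genes and luminal control replicate 2 is high across many.

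The range between replicates was wider in the controls than in the knockout-labelled groups. The highest library exceeded the lowest by more than 2-fold for 4 of 36 members among basal knockout-labelled libraries and for 22 of 36 among basal controls. Over all genes tested those shares were 19.3% and 24.4%. In luminal cells it was 5 of 36 members among knockout-labelled libraries and 17 of 36 among controls, against 14.9% and 22.9% of all genes. Basal control replicate 3 was the lowest of its group for 31 of 36 members, and luminal control replicate 3 was the lowest for 28 of 36. For all genes tested these shares were 45.7% and 39.3%. The median member lay 1.13 log2 units below the mean of the other basal control libraries there (a deviation of -1.13, with -0.05 over all genes), and the median deviation in luminal control replicate 3 was -0.67 (-0.002 over all genes). Btg2, an antiproliferative gene, deviated most in basal control replicate 3, by -1.91, and Egr3, a zinc finger factor, deviated most in luminal control replicate 3, by -2.10.

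Not all members were low in the control libraries of number 3. As a description, 27 members were lowest in both of them, including Fos, Jun, Egr1, Atf3, the Nr4a genes, Dusp1, Hspa1a and Hspa1b. Just 4 were lowest in neither: Fosl1, Fosl2, the Krüppel-like factor Klf6 and the small heat shock protein gene Hspb1. Fosl1 and Fosl2 encode Fos-related proteins that are known from cultured fibroblasts to accumulate later after a stimulus than Fos. Fosl2, for example, stood at 869, 712 and 828 CPM in basal controls and Hspb1 at 274, 195 and 264 CPM, while Fos stood at 4903, 5221 and 1487 CPM. Summed marker levels also moved in these libraries. Basal control replicate 3 held 161 CPM of endothelial markers, where replicates 1 and 2 held 67.3 and 111 CPM. For fibroblast markers it held 663 CPM, where they held 533 and 504 CPM. Luminal control replicate 3 held 758 CPM of basal markers, where replicates 1 and 2 held 191 and 147 CPM. It was also highest for fibroblast markers (446 CPM against 81.8 and 201 CPM) and endothelial markers (169 CPM against 97.5 and 101 CPM). It was lowest for pericyte markers (125 CPM against 186 and 210 CPM). The part of these cells in the low levels was not tested, and in bulk libraries fewer cells of a type and less RNA per cell cannot be told apart.

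**Figure D2:**
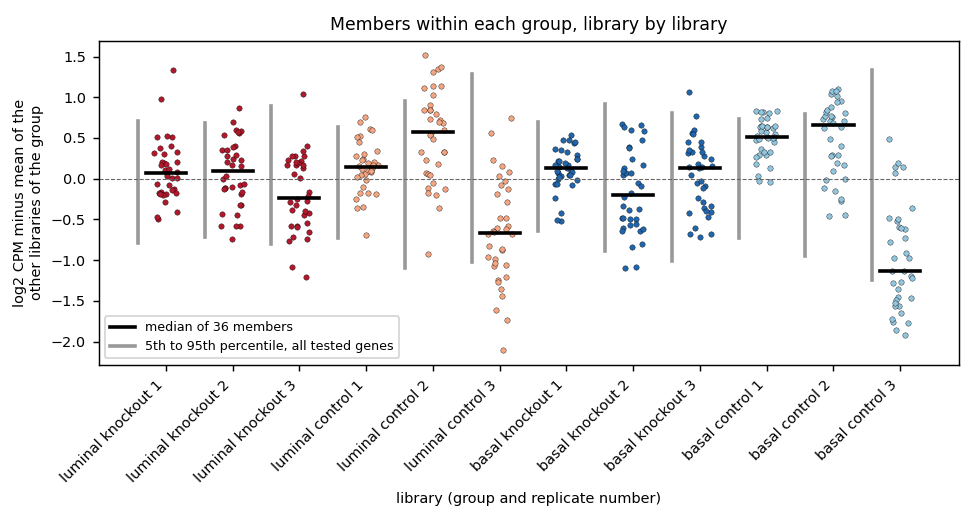
Each point is 1 of the 36 genes, placed by its log2 CPM in a library minus its mean in the other libraries of the group; black bars are medians of the 36 and grey bars span the 5th to 95th percentile of all genes tested. The median is -1.13 in basal control replicate 3 and -0.67 in luminal control replicate 3, and 0.66 and 0.58 in replicate 2 of basal and luminal controls.

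Basal knockout-labelled cells were compared with basal controls to ask how loss of Foxp1 bears on the basal compartment. None of the 36 genes was called in either direction by edgeR's quasi-likelihood test with Benjamini-Hochberg adjustment over 14903 genes. That test called 0.671% of all genes. An unadjusted p under 0.05 was reached by 2 of 36 members and by 1324 of all 14903 genes. DESeq2 called 0 members and limma-voom 0. The fold was positive for 33 of 36 members and their median log2 fold was 0.32, against -0.01 over all genes. Without basal control replicate 3, the library that stood low above, 21 of 36 were positive and the median was 0.09. Pair by pair of the same number, the median member was 0.21, 0.003 and 1.20 log2 units higher in the knockout-labelled library. These libraries did not meet the correlation rule for pairing given with the processing.

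Among basal cells 2 members had every knockout-labelled library above every control, against 8.15% of all genes, and 1 had every knockout-labelled library below, against 4.21%. Nr4a3, an orphan nuclear receptor without a known ligand, was at 195, 154 and 237 CPM in knockout-labelled libraries and at 122, 90.4 and 81.7 CPM in controls. Its log2 fold of 0.99 (SE 0.31, adjusted p = 0.228, edgeR) did not pass the test. Ier3, a stress-inducible survival gene, was at 922, 760.1 and 806 CPM in knockout-labelled libraries and at 745, 689 and 365 CPM in controls, with control replicate 3 farthest below. Dusp2 was at 13.7, 15.3 and 13.4 CPM in knockout-labelled libraries and at 29.7, 21.8 and 16.4 CPM in controls, a log2 fold of -0.68 (SE 0.26, adjusted p = 0.388, edgeR). The knockout-labelled values of Dusp2 lay within 2 CPM of each other and below the lowest control.

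The other basal values overlapped between genotypes. Fos was at 4263, 6283 and 4029 CPM in knockout-labelled libraries and at 4903, 5221 and 1487 CPM in controls, so that 2 of the 3 controls lay within the knockout-labelled range and replicate 3 far below it. The 95% interval of its log2 fold ran from -0.75 to 1.41. By class, the median log2 fold was 0.38 for the AP-1 genes, 0.34 for the other factors, 0.29 for the feedback regulators and 0.20 for the heat shock genes. Hsp90aa1 and Hsph1, which encode a stress-inducible Hsp90 and the Hsp110 partner of Hsp70, had folds of -0.07 and -0.02. Summed fibroblast markers were at 1880 to 3160 CPM in basal knockout-labelled libraries and at 504 to 663 CPM in basal controls, with all 9 markers higher. Of these, 8 had an unadjusted p under 0.05 and 2 were called by edgeR, Pdgfra (log2 fold 2.41, adjusted p = 0.0138) and Dpp4 (2.85, adjusted p = 0.0395). Summed pericyte markers were at 62.2 to 184 CPM in knockout-labelled libraries and at 55.9 to 85.6 CPM in controls, with 6 of 6 markers higher and none called. Summed luminal markers were at 1530 to 2550 CPM in knockout-labelled libraries and at 1240 to 1630 CPM in controls, with 7 of 9 higher and none called (5 at an unadjusted p under 0.05). The part of these cells in the members' values was not tested.

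In luminal cells the same comparison again gave no called member, against 3.03% of all genes. An unadjusted p under 0.05 in edgeR was reached by 8 of 36 members and by 2567 of all 14903 genes. DESeq2 called 2 members lower and limma-voom called 0. Of 14903 genes DESeq2 called 1089 in either direction and limma-voom 437. The fold was negative for 30 of 36 members and the median log2 fold was -0.52, against -0.03 over all genes. Leaving out the low control replicate 3 moved the median to -0.64, and leaving out the high control replicate 2, which was also high in Rn45s, moved it to -0.28. With all libraries kept but Rn45s and the salivary genes left out, the median was -0.50. These libraries were taken as paired by number, under the correlation rule given with the processing. In the knockout-labelled library of the pair 32, 32 and 26 of 36 members were lower, with medians of -0.45, -0.77 and -0.08. With the replicate number as a block, the model called 1 member, Dusp2, lower (log2 fold -0.87, adjusted p = 0.0347, edgeR). The same model called 1097 of 14903 genes in either direction.

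Heat shock genes showed the largest class median in luminal cells, a log2 fold of -0.76. Of the 8, 4 had an unadjusted p under 0.05 in edgeR, against 2567 of all 14903 genes. Hsp90aa1 was at 225, 202 and 281 CPM in knockout-labelled libraries and at 377, 489.7 and 407 CPM in controls, without overlap. Its log2 fold was -0.85 (SE 0.25, adjusted p = 0.0963 by edgeR and 0.0219 by DESeq2), the lowest edgeR p of any member. Hspa1a, the stress-inducible Hsp70, was at 311, 421 and 456 CPM in knockout-labelled libraries and at 697, 1089 and 569 CPM in controls, also without overlap. Its log2 fold was -0.99 (SE 0.38, adjusted p = 0.202, edgeR). Hsph1 was at 88.5, 84.0 and 178 CPM in knockout-labelled libraries and at 154, 206 and 299 CPM in controls, where replicate 3 was the highest of both groups. The constitutive Hsc70 gene Hspa8 was at 574, 537 and 478 CPM in knockout-labelled libraries and at 851, 1143 and 557 CPM in controls, and 1 control lay inside the knockout-labelled range. Hspb1 barely differed, at 250 ± 28.4 CPM in knockout-labelled cells and 249 ± 18.8 CPM in controls (SD, n = 3 each).

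Among luminal cells 9 members had every knockout-labelled library below every control, against 12.3% of all genes, and 2 had every one above, against 13.1%. The 9 were Maff, Myc, Ier5, Dusp2, Dusp5, Hspa1a, Hspa1b, Hsp90aa1 and the Hsp40 gene Dnaja1. The 2 above were Nr4a3 and Ier3, which also stood above all controls in basal cells. Nr4a3 was at 98.0, 50.5 and 48.3 CPM in luminal knockout-labelled libraries and at 46.8, 36.5 and 25.6 CPM in luminal controls, a log2 fold of 0.85 (SE 0.31, adjusted p = 0.183, edgeR). Ier3 was at 489.7, 430.3 and 478 CPM in knockout-labelled libraries and at 389, 357 and 306 CPM in controls, a log2 fold of 0.41 (SE 0.25, 95% interval -0.16 to 0.98). Dusp2, low in both cell types of knockout-labelled mice, was at 3.89, 4.47 and 3.34 CPM in knockout-labelled libraries and at 8.42, 7.95 and 5.33 CPM in controls, a log2 fold of -0.89 (SE 0.27, adjusted p = 0.104, edgeR).

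**Figure D3:**
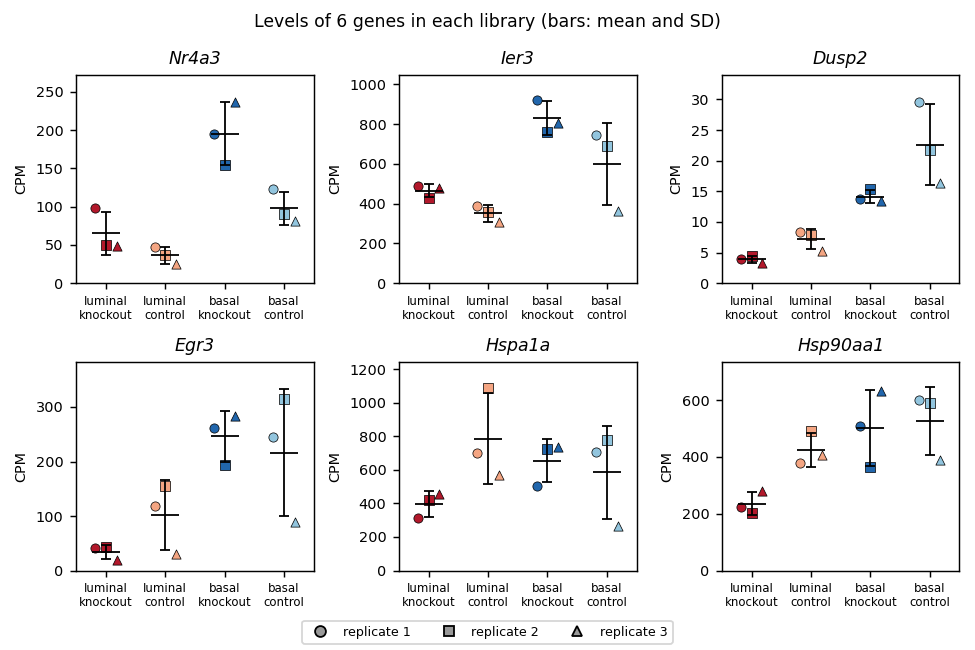
CPM of 6 genes in each library, with 1 symbol per replicate number and bars for the mean and SD of 3 libraries; Egr3 and Hspa1a are shown as examples chosen after their values were seen. Nr4a3 and Ier3 lie above the controls and Dusp2 below them in both cell types, and replicate 3 is the lowest basal control for all 6.

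Of the growth response factors, Egr3 had the largest luminal fold and the widest error. It was at 41.7, 42.4 and 19.6 CPM in knockout-labelled libraries and at 118, 155 and 31.2 CPM in controls, a log2 fold of -1.56 (SE 0.57, adjusted p = 0.177, edgeR). Control replicate 3 lay inside the knockout-labelled range, and without that library the log2 fold was -1.96 and passed the test (adjusted p = 0.0425). With control replicate 3 of both cell types left out, an alternative chosen after seeing the data, 9 members were called lower in luminal knockout-labelled cells: Fosb, Egr1, Egr3, Ier2, Dusp2, Zfp36, Hspa1a, Hspa1b and Hspa8. In that fit 1097 of 15209 genes were called in either direction. Myc, the growth regulator, was at 229, 235 and 282 CPM in knockout-labelled libraries and at 303, 324 and 461 CPM in controls, and here control replicate 3 was the highest library. Its log2 fold was -0.54 (SE 0.25, adjusted p = 0.282, edgeR). Fos was at 2925, 3757 and 2956 CPM in knockout-labelled libraries and at 5066, 7533 and 2679 CPM in controls, with 1 control below all knockout-labelled libraries. In the same libraries summed macrophage markers were at 127 to 158 CPM in knockout-labelled cells and at 251 to 283 CPM in controls, most of it Cd14, while the macrophage marker Csf1r averaged 8.59 CPM in knockout-labelled cells and 1.92 CPM in controls and Cd68 averaged 12.7 CPM in knockout-labelled cells and 12.6 CPM in controls. Endothelial markers were at 67.6 to 81.7 CPM in knockout-labelled cells and at 97.5 to 169 CPM in controls. Summed basal markers were at 386 to 1060 CPM in knockout-labelled cells and at 147 to 758 CPM in controls, with Trp63 called higher (log2 fold 2.80, adjusted p = 0.0253, edgeR) and 4 of 8 higher. Their part in these values was not tested.

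**Figure D4:**
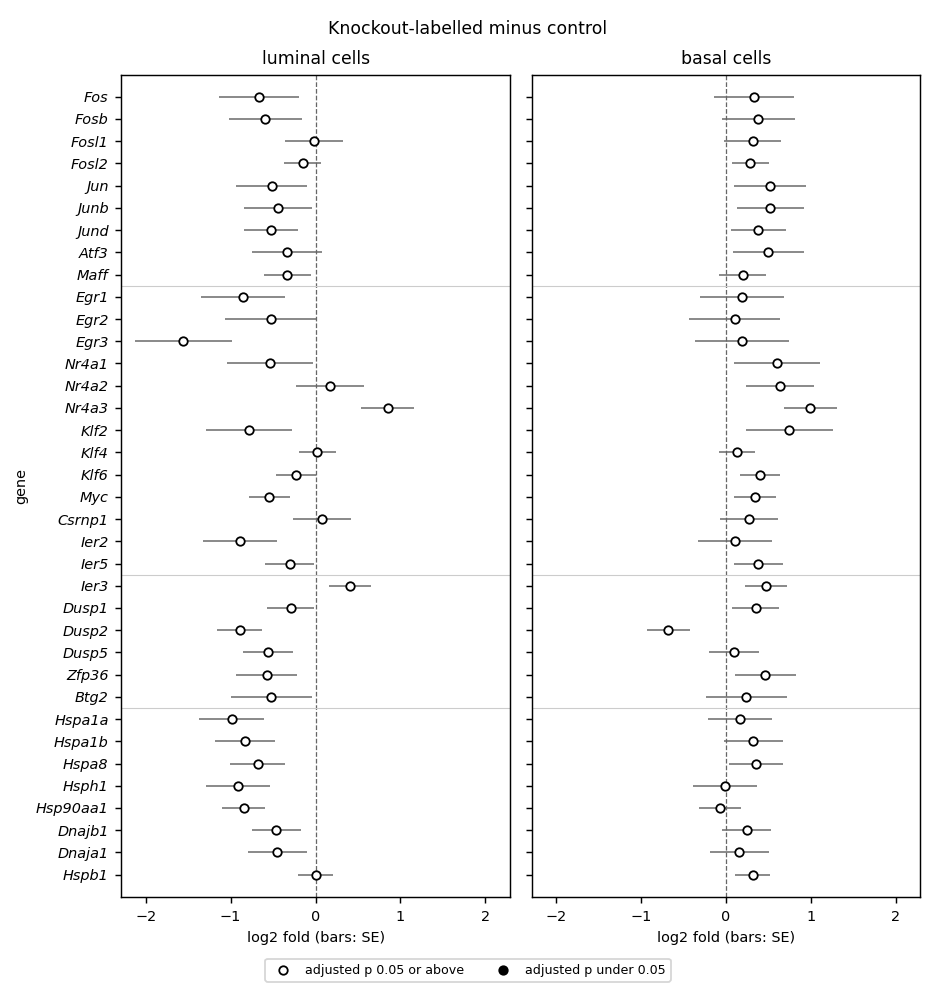
Log2 fold of knockout-labelled over control cells for each of the 36 genes, in luminal cells (left) and basal cells (right), with SE bars; no point is filled because none reached an adjusted p under 0.05. Most luminal folds lie left of 0 (30 of 36) and most basal folds lie right of it (33 of 36).

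Whether the knockout-labelled effect differed between cell types was tested as an interaction, the luminal effect minus the basal effect. The difference was negative for 36 of 36 members, with a median of -0.77, against -0.02 over all genes. No member was called by edgeR, against 0.275% of all genes. The 5 members with an unadjusted p under 0.05 were Egr3, Myc, Hspa1b, Hspa8 and Hsp90aa1, where 1467 of all 14903 genes had one. DESeq2 and limma-voom also called 0. Myc had the lowest adjusted p, 0.399, with a difference of -0.89 (SE 0.35). The smallest differences were -0.06 for Ier3, -0.11 for Klf4 and -0.14 for Nr4a3. Without basal control replicate 3 the median difference was -0.55 and 2 members were positive.

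Luminal cells were then compared with basal cells within each genotype. Among knockout-labelled libraries the genes were broadly lower in luminal cells: 17 of 36 were called lower, against 21.4% of all genes, and 1 was called higher, against 19.2%. The median log2 fold was -0.82, against 0.03 over all genes, and 33 of 36 were negative. Among controls 5 were called lower, against 16.8% of all genes, and 2 higher, against 16.3%, with a median of -0.12, against 0.04 over all genes. With the replicate number, by which these control libraries were taken as paired, as a block, 8 were called lower and 6 higher. That fit called 6528 of 14903 genes in either direction, against 4942 without the block. That the 2 comparisons differ for a gene is what the interaction tested, and it called no member. Same-number pairs had medians of -0.84, -0.77 and -0.85 among knockout-labelled libraries and of -0.28, -0.01 and 0.18 among controls.

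**Figure D5:**
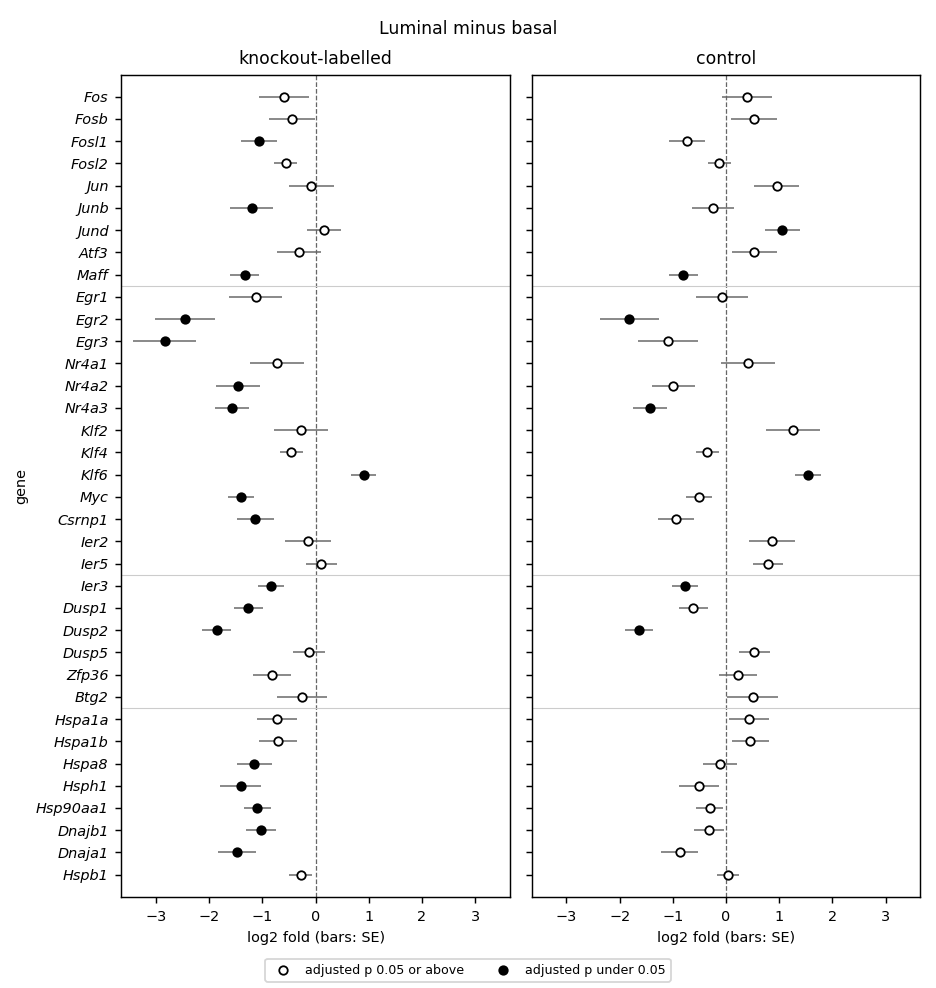
Log2 fold of luminal over basal cells for each of the 36 genes, among knockout-labelled libraries (left) and controls (right), with SE bars; filled points have an adjusted p under 0.05 (18 at left, 7 at right). Klf6 is called to the right of 0 in both panels, and Maff, Egr2, Nr4a3, Ier3 and Dusp2 to the left of 0 in both.

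Among the other factors Egr2 and Egr3, zinc finger factors related to Egr1, fell most among knockout-labelled libraries. Egr3 stood at 41.7, 42.4 and 19.6 CPM in luminal and 261, 194 and 283 CPM in basal knockout-labelled libraries, a log2 fold of -2.83 (SE 0.59, adjusted p = 0.0029, edgeR). Among controls it stood at 118, 155 and 31.2 CPM in luminal and 245, 315 and 88.5 CPM in basal libraries, where the groups overlapped and the fold of -1.09 was not called (adjusted p = 0.157). Egr2, whose promoter carries the CArG box shown above, stood at 110.1, 120 and 49.6 CPM in luminal and 512, 604 and 416 CPM in basal knockout-labelled libraries, a log2 fold of -2.45 (SE 0.57, adjusted p = 0.00524). Among controls it stood at 155, 196 and 52.3 CPM in luminal and 596, 660.4 and 173 CPM in basal libraries, a log2 fold of -1.82 (SE 0.56, adjusted p = 0.0257). Luminal and basal levels did not overlap among knockout-labelled libraries, but among controls basal replicate 3 fell inside the luminal range, and the control call was lost without luminal control replicate 1 or 3 or basal control replicate 1 or 2, and when only the groups compared were fitted (adjusted p = 0.065).

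The nuclear receptors Nr4a2 and Nr4a3 were called lower in luminal knockout-labelled cells, and Nr4a3 also in luminal controls, while Nr4a1 was not called in either genotype without the block. Nr4a3, given above by library, fell by 1.58 on the log2 scale in luminal against basal knockout-labelled cells (SE 0.32, adjusted p = 0.00229, edgeR) and by 1.43 among controls (SE 0.32, adjusted p = 0.0049). Its luminal libraries lay below all basal libraries in controls and in knockout-labelled cells, and no alternative run lost either call. Nr4a2 stood at 129.7, 53.3 and 48.9 CPM in luminal and 229.5, 157 and 249 CPM in basal knockout-labelled libraries, a log2 fold of -1.45 (SE 0.41, adjusted p = 0.0146). Among controls it stood at 70.7, 95.4 and 39.3 CPM in luminal and 136, 168 and 106 CPM in basal libraries (log2 fold -0.99, adjusted p = 0.0805).

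Klf6, a tumour suppressor of the Krüppel-like family, was the 1 member called higher in luminal cells of both genotypes. It stood at 2351, 2494 and 2934 CPM in luminal and 1535, 1150 and 1464 CPM in basal knockout-labelled libraries, a log2 fold of 0.91 (SE 0.24, adjusted p = 0.0102, edgeR). Among controls it stood at 2560, 3495 and 3048 CPM in luminal and 1012, 840.4 and 1291 CPM in basal libraries, a log2 fold of 1.53 (SE 0.24, adjusted p = 0.000572). Every luminal library lay above every basal one. Myc stood at 229, 235 and 282 CPM in luminal and 648, 589 and 730.3 CPM in basal knockout-labelled libraries, a log2 fold of -1.40 (SE 0.25, adjusted p = 0.0011). Among controls it stood at 303, 324 and 461 CPM in luminal and 629, 573 and 349.8 CPM in basal libraries, where the libraries of number 3 crossed (log2 fold -0.51, adjusted p = 0.131). Csrnp1, a nuclear protein induced by AXIN1 in human cells, stood at 612, 514 and 430.1 CPM in luminal and 1364, 860.2 and 1186 CPM in basal knockout-labelled libraries (log2 fold -1.13, SE 0.34, adjusted p = 0.0208). Its control libraries stood at 593, 525 and 358 CPM in luminal and 1174, 1168 and 484 CPM in basal cells and overlapped (log2 fold -0.94, adjusted p = 0.0539, and 0.0221 with the replicate block).

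In the AP-1 group 3 of 9 members were called lower in luminal than in basal knockout-labelled cells, against 21.4% of all genes: Maff, Junb and Fosl1. Fos, the most abundant member per kilobase, was not called, nor were Fosb and Jun. Maff, a small Maf protein that can pair with Fos, stood at 290.4, 259 and 301 CPM in luminal and 708, 463 and 976 CPM in basal knockout-labelled libraries, a log2 fold of -1.33 (SE 0.28, adjusted p = 0.00296, edgeR). Among controls it stood at 398, 337 and 337 CPM in luminal and 746, 694 and 433 CPM in basal libraries, a log2 fold of -0.80 (SE 0.28, adjusted p = 0.0432), a call that was lost without any 1 control library except basal replicate 3. Maff did not overlap between cell types in either genotype. Junb, a Jun protein that can restrain Jun, stood at 1087, 1107 and 816 CPM in luminal and 2620, 2340 and 1971 CPM in basal knockout-labelled libraries, a log2 fold of -1.20 (SE 0.40, adjusted p = 0.0321), a call that was lost with library size scaling alone and without any 1 knockout-labelled library except basal replicate 3. Its control libraries, at 1372, 1902 and 819 CPM in luminal and 1846, 2249 and 737 CPM in basal cells, overlapped widely. Fosl1 stood at 74.9, 41.7 and 65.3 CPM in luminal and 153, 71.6 and 154 CPM in basal knockout-labelled libraries (log2 fold -1.06, SE 0.34, adjusted p = 0.0274), with basal replicate 2 inside the luminal range, a call that was lost without basal knockout replicate 1 or 3 or luminal knockout replicate 2 or 3. Among controls Fosl1 stood at 80.8, 38.0 and 65.3 CPM in luminal and 108, 89.2 and 108 CPM in basal libraries (log2 fold -0.73, adjusted p = 0.121, and 0.0045 with the replicate block).

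Jund, the Jun protein that is least dependent on stimulation, went the other way and was called in controls alone, a difference between genotypes that was tested and not called (adjusted p = 0.563 or above for every AP-1 gene). It stood at 1361, 1724 and 955 CPM in luminal and 716, 867 and 358 CPM in basal controls, a log2 fold of 1.06 (SE 0.32, adjusted p = 0.0262, edgeR). Among knockout-labelled libraries it stood at 876, 1115 and 816 CPM in luminal and 926, 867 and 733 CPM in basal cells, and these overlapped. The control call of Jund was lost without basal control replicate 3, whose level was the lowest of all 12 libraries, without basal replicate 1 or luminal replicate 1 or 2, and when only the groups compared were fitted (adjusted p = 0.0839).

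Feedback regulators split as well. Dusp2, given above by library, was lower in luminal than in basal cells among knockout-labelled libraries (log2 fold -1.86, SE 0.27, adjusted p = 0.000306, edgeR) and among controls (-1.64, SE 0.26, adjusted p = 0.00066), without overlap in either genotype. Ier3 had a log2 fold of -0.83 among knockout-labelled libraries (SE 0.25, adjusted p = 0.0197) and of -0.77 among controls (SE 0.25, adjusted p = 0.0325). Its basal control replicate 3 fell inside the luminal range, and the control call was lost without basal replicate 1 or 2 or luminal replicate 2 or 3, and when only the groups compared were fitted (adjusted p = 0.0828). Dusp1, whose promoter carries the cyclic AMP response element shown above, stood at 621, 646 and 534 CPM in luminal and 1687, 1223 and 1404 CPM in basal knockout-labelled libraries, without overlap (log2 fold -1.26, SE 0.28, adjusted p = 0.00413). Its control libraries stood at 772, 966 and 470.2 CPM in luminal and 1393, 1105 and 885 CPM in basal cells and overlapped (log2 fold -0.62, adjusted p = 0.11, and 0.0447 with the replicate block). Btg2, with the same element, and Dusp5 and Zfp36, with CArG boxes, were not called in either genotype by edgeR without the block. The 6 genes with a printed element therefore included both called and uncalled members for each element.

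Of the 8 heat shock genes 5 were called lower in luminal than in basal knockout-labelled cells, against 21.4% of all genes. None was called by edgeR among controls, where 16.8% of all genes were called lower and 16.3% higher. Among these controls 1 of the 8 had an unadjusted p under 0.05, against 6452 of all 14903 genes, and DESeq2 called Dnaja1 lower. Dnaja1, an Hsp40 co-chaperone of Hsp70, stood at 105, 93.7 and 99.9 CPM in luminal and 338, 202 and 292 CPM in basal knockout-labelled libraries, a log2 fold of -1.48 (SE 0.35, adjusted p = 0.00616, edgeR). Its control libraries stood at 144, 156 and 108 CPM in luminal and 300.2, 336 and 110.1 CPM in basal cells (log2 fold -0.87, adjusted p = 0.0748), with the libraries of number 3 alike. Hsph1 stood at 230, 224 and 474 CPM in basal knockout-labelled libraries, above the luminal values given earlier (log2 fold -1.40, SE 0.38, adjusted p = 0.0128), and at 355, 338 and 246 CPM in basal controls. Hspa8 stood at 1361, 920 and 1242 CPM in basal knockout-labelled libraries (log2 fold -1.15, SE 0.32, adjusted p = 0.0145) and at 1003, 1201 and 559.7 CPM in basal controls. In both genes the luminal knockout-labelled libraries lay below all basal knockout-labelled ones, while luminal and basal controls overlapped. Hsp90aa1 stood at 510.1, 365 and 633 CPM in basal knockout-labelled libraries (log2 fold -1.09, SE 0.25, adjusted p = 0.00504) and at 601, 589 and 389.5 CPM in basal controls. Dnajb1, the Hsp40 that stimulates the Hsp70 ATPase, stood at 316, 327 and 371 CPM in luminal and 703, 660 and 704 CPM in basal knockout-labelled libraries (log2 fold -1.03, SE 0.29, adjusted p = 0.0147). Its control libraries stood at 456, 574 and 368 CPM in luminal and 633, 792 and 324 CPM in basal cells, where basal control replicate 3 was the lowest of the 6.

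Among the 18 luminal against basal calls in knockout-labelled libraries, those of Dnaja1, Dusp1, Dusp2, Egr2, Egr3, Hsp90aa1, Klf6, Maff, Myc and Nr4a3 held in all 17 alternatives that gave a value. The other 8 were each lost without at least 1 library: Hspa8 without luminal knockout replicate 3; Nr4a2 without luminal replicate 2 or 3; Dnajb1 without luminal replicate 1 or 2; Ier3 without luminal replicate 2 or basal replicate 1; Hsph1 without luminal replicate 1 or 2 or basal replicate 3; Csrnp1 without luminal replicate 2 or 3 or basal replicate 1; and Junb and Fosl1 as given above. Without luminal knockout replicate 2 the count of lower calls was 10 instead of 17. Fibroblast, endothelial, pericyte and salivary markers moved with this comparison too. Of 8 endothelial markers 6 were called lower and 1 higher, Vwf, which averaged 54.6 CPM in luminal and 11.9 CPM in basal knockout-labelled libraries. Of 6 pericyte markers 5 were called lower and 1 higher, Notch3, which averaged 219 and 52.9 CPM. Over all genes 21.4% were called lower and 19.2% higher. Summed fibroblast markers were at 134 to 388 CPM in luminal and 1880 to 3160 CPM in basal knockout-labelled libraries, with 8 of 9 called lower, and summed salivary markers were at 20000 to 83600 CPM in luminal and 180 to 4960 CPM in basal ones. Leaving the salivary genes and Rn45s out of the library sizes moved the median of the members to -0.82, the same value as with them. The part of fibroblasts, endothelial cells and pericytes was not tested.

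Hspa1a and Hspa1b are neighbouring genes on chromosome 17 that encode nearly the same Hsp70, so reads can be lost or shared out between them and their single values are uncertain. Their longest reading frames differed at 8 of 1926 aligned bases, an identity of 99.6%. The 250 bases upstream were identical at 247 positions, with the substitutions C44T, T47C and T249G from Hspa1a to Hspa1b, counted from 1 at the 5′ end of the window. Both windows are shown with the differing bases in capitals, for Hspa1a (chr17:34972157-34972406, minus strand) and Hspa1b (chr17:34959239-34959488, minus strand), because they carry the pair's shared upstream sequence.
Hspa1a: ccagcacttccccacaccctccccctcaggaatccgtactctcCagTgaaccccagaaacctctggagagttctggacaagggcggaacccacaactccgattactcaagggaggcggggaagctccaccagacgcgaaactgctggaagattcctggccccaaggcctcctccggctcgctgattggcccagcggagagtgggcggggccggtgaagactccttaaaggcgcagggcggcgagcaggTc
Hspa1b: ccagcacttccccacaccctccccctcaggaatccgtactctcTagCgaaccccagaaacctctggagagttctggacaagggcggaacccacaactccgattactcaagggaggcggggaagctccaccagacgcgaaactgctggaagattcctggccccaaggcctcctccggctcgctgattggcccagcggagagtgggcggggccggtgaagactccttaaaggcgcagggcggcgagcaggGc

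The counts of the pair moved together. Hspa1a held 35.9%, 36.4% and 38.4% of their summed counts in luminal knockout-labelled libraries and 39.8%, 39.0% and 40.1% in luminal controls. In basal cells it held 36.2%, 38.9% and 36.8% in knockout-labelled libraries and 39.3%, 41.8% and 37.1% in controls. The share stayed between 35.9% and 41.8% while the sum ranged from 716 CPM in basal control replicate 3 to 2790 CPM in luminal control replicate 2. Hspa1b stood at 555, 736 and 733 CPM in luminal knockout-labelled libraries and 1056, 1701 and 852 CPM in luminal controls, without overlap (log2 fold -0.83, SE 0.36, adjusted p = 0.249, edgeR). Basal levels were 893, 1134 and 1264 CPM in knockout-labelled libraries and 1095, 1085 and 451 CPM in controls, which overlapped. Summed into 1 row, the pair had a log2 fold of -0.89 in luminal cells (adjusted p = 0.238) and of 0.26 in basal cells (adjusted p = 0.982).

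Other genes of these programmes, are given from lists drawn up by name. Of 32 further primary response and stress genes 1 was called between genotypes (in basal cells, where 0.671% of all genes were called), Id3, an inhibitor of helix-loop-helix factors, which rose in basal knockout-labelled cells (log2 fold 1.48, SE 0.29, adjusted p = 0.0493, edgeR). In luminal cells its log2 fold was 0.94 (adjusted p = 0.113), and Rgs2, a regulator of G protein signalling, had 1.46 (adjusted p = 0.0526). The median of the 32 was 0.24 in the basal comparison and -0.22 in the luminal one. Of the 32, 5 and 8 had an unadjusted p under 0.05 in edgeR, against 1324 and 2567 of all 14903 genes. Between luminal and basal cells 13 were called lower and 3 higher among knockout-labelled libraries, where 21.4% of all genes were called lower and 19.2% higher. Among controls 8 were lower and 3 higher, against 16.8% and 16.3%. Arc, an activity-regulated gene of neurons, was lower in luminal cells by a log2 fold of -4.05 among knockout-labelled libraries and -3.75 among controls, and the Notch target Hes1 was higher among controls by 2.11.

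Of 10 genes that respond to or damp MAP kinase signalling none was called between genotypes. In basal cells 0 had an unadjusted p under 0.05 and in luminal cells 3, against 1324 and 2567 of all 14903 genes. The lowest adjusted p was 0.0649 for the phosphatase gene Dusp10 in luminal cells (log2 fold 1.70, edgeR). In luminal against basal knockout-labelled cells, with the same shares of all genes, 6 were called lower, among them the ETS factors Etv4 (-3.06) and Etv5 (-2.41), and 2 higher, Dusp10 (2.26) and Dusp4 (2.15). Among controls 5 were called lower, against 16.8% of all genes, among them Etv5 (-2.99) and Etv4 (-2.52). There 1 was called higher, against 16.3%, Dusp4 (1.56). Of 29 other chaperones and co-chaperones 1 was called between genotypes, in luminal cells, where 3.03% of all genes were called: Serpinh1, a collagen chaperone, fell in luminal knockout-labelled cells (log2 fold -1.41, SE 0.33, adjusted p = 0.0453, edgeR). The median of the 29 was -0.02 in basal and -0.14 in luminal cells, against 0.20 and -0.76 for the 8 heat shock members. Between luminal and basal cells 12 were called lower, against 21.4% of all genes, and 1 higher, against 19.2%, among knockout-labelled libraries, led by Serpinh1 (-3.23), Hspa2 (-2.42), Hspb8 (-2.29) and Bag3 (-1.97). Among controls 7 were called lower, against 16.8% of all genes, and 1 higher, against 16.3%. Those lower included Hspa2 (-2.58), Serpinh1 (-2.08), Bag3 (-1.94) and Hspb8 (-1.685). Of 20 tested upstream regulators none was called between genotypes, with 0 at an unadjusted p under 0.05 in basal and 1 in luminal cells. In luminal against basal knockout-labelled cells 4 of the 20 were called lower, against 21.4% of all genes, and 0 higher, against 19.2%. They were Mkl1, a partner of serum response factor (log2 fold -1.16, SE 0.18, adjusted p = 0.000425, edgeR), Atf2 (-0.70), Elk1 (-0.53) and Hsf1, the master regulator of heat shock genes (-0.49, SE 0.17, adjusted p = 0.0335). Among controls 4 were called lower, against 16.8% of all genes, with Mkl1 again among them (-1.23, adjusted p = 0.000332, edgeR). There 1 was called higher, against 16.3%.

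The remaining members were called in no comparison by edgeR without the block and are given as group means with their SD (n = 3 each). Fosb, a partner of Jun, stood at 2791 ± 598 CPM in luminal knockout-labelled cells and 4210 ± 1757 CPM in luminal controls, and at 3809 ± 223 CPM in basal knockout-labelled cells and 2929 ± 1438 CPM in basal controls. Jun itself stood at 1830 ± 476 CPM in luminal knockout-labelled cells and 2619 ± 1312 CPM in luminal controls, and at 1938 ± 597 CPM in basal knockout-labelled cells and 1354 ± 549 CPM in basal controls. The SD was largest among luminal controls for Jun and for Fosb. As a ratio of the highest to the lowest library, the range of Fosb was wider in basal controls (3.03) than in luminal controls (2.48). With the replicate block Jun was called higher in luminal than in basal controls (adjusted p = 0.00726, edgeR), as was Ier5 (adjusted p = 0.0295). Egr1, the zinc finger factor used as the standard readout of ERK activity, stood at 1530 ± 397 CPM in luminal knockout-labelled cells and 2771 ± 1460 CPM in luminal controls, and at 3331 ± 690.1 CPM in basal knockout-labelled cells and 2924 ± 1573 CPM in basal controls. Nr4a1, the most abundant of the Nr4a receptors, stood at 678 ± 191 CPM in luminal knockout-labelled cells and 981 ± 648 CPM in luminal controls, and at 1123 ± 332 CPM in basal knockout-labelled cells and 739 ± 346 CPM in basal controls. For Fosb, Jun, Egr1 and Nr4a1 the knockout-labelled mean was above the control mean in basal cells and below it in luminal cells, and no difference was called. Zfp36, an RNA-binding protein that destabilises cytokine mRNAs, stood at 982 ± 137 CPM in luminal knockout-labelled cells and 1464 ± 499.6 CPM in luminal controls, and at 1727 ± 158 CPM in basal knockout-labelled cells and 1255 ± 558 CPM in basal controls. Btg2 stood at 694 ± 171 CPM in luminal knockout-labelled cells and 995 ± 417 CPM in luminal controls, and at 830.1 ± 248 CPM in basal knockout-labelled cells and 704 ± 399 CPM in basal controls. Dusp5, a nuclear phosphatase of ERK, stood at 239 ± 53.4 CPM in luminal knockout-labelled cells and 353 ± 23.2 CPM in luminal controls, without overlap, and at 259.8 ± 96.7 CPM in basal knockout-labelled cells and 244 ± 59.6 CPM in basal controls.

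Klf2 and Ier2 had positive luminal against basal folds among controls (1.26 and 0.86) and folds near 0 among knockout-labelled libraries (-0.27 and -0.14). Without the block edgeR called none of these, and with the replicate block it called both genes higher in luminal controls (adjusted p = 0.00313 for Klf2 and 0.019 for Ier2). Ier5 stood at 564 ± 71.1 CPM in luminal knockout-labelled cells and 697 ± 51.8 CPM in luminal controls, and at 524 ± 151 CPM in basal knockout-labelled cells and 404 ± 146 CPM in basal controls (SD, n = 3 each). Klf4, a Krüppel-like factor of epithelial differentiation, stood at 735 ± 52.5 CPM in luminal knockout-labelled cells and 725 ± 186 CPM in luminal controls, and at 1010 ± 144 CPM in basal knockout-labelled cells and 924 ± 56.4 CPM in basal controls. Atf3, a stress-induced partner of Jun, stood at 1472 ± 354 CPM in luminal knockout-labelled cells and 1861 ± 680 CPM in luminal controls, and at 1818 ± 304 CPM in basal knockout-labelled cells and 1286 ± 631 CPM in basal controls. For Ier5, Klf4 and Atf3 the 95% interval of the fold between genotypes included 0 in both cell types.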

How the data were processed

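RNA was measured in 12 libraries, 3 for each of 4 groups. Per the labels, total RNA was extracted with a Qiagen kit, and TruSeq RNA v2 libraries were sequenced on an Illumina HiSeq instrument. The authors deposited whole-number counts of reads per Entrez gene, without normalization, and the gene length of each row. Per the submitters' processing notes, base calls came from CASAVA 1.8.2 and counts from featureCounts, with mm10 as the build; the aligner, the annotation and the use of strand are not stated in the sources used here. The series table and the 12 library files differed in 0 values, and 0 further columns of per-sample values were left unused. Libraries held 9769361 to 15449513 counts. Every pair of replicates differed beyond sampling noise (chi-square over degrees of freedom 11.7 to 137).

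The deposited counts went into edgeR 4.0.16 under R 4.3.3 (quasi-likelihood F test, robust, TMM factors, default expression filter by group), in a model of 4 group means over all libraries with 8 residual degrees of freedom. A gene was called at a Benjamini-Hochberg adjusted p under 0.05 over 14903 genes, and adjusted p-values without a named tool are from this fit. SEs are the size of the log2 fold over the square root of F. CPM values use TMM factors, and deviations use log2 of CPM plus 0.5; levels between genes are compared per kilobase of the deposited gene length. The common biological coefficient of variation was 32.6%. Members given library by library were those called in any of the 5 comparisons, or not overlapping between genotypes with a log2 fold of at least 1 in size, which added none; Fos, Hspa1a, Hspa1b, Fosl2 and Hspb1 were added after their values were seen. Of the other lists, up to 4 called genes with the largest fold per comparison could be named, or up to 2 with the lowest p. The members and lists were chosen with earlier results of these data known.

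Same-numbered libraries were taken as paired where their deviations from the group means correlated above 0.1 in all 3 pairs. The rule used these same counts, so it does not settle whether libraries were paired by design. Libraries of the same number also shared a letter in their names across all 4 groups, which the rule did not use. The rule was met by luminal knockout-labelled and control libraries (0.36, 0.34 and 0.57) and by luminal and basal controls (0.32, 0.43 and 0.47). It was not met by basal knockout-labelled and control libraries (-0.08, 0.38 and 0.16) or by luminal and basal knockout-labelled libraries (0.09, 0.45 and 0.44). Alternatives were other scalings and filters, DESeq2 1.42.0, limma-voom (limma 3.58.1), fitting only the compared groups, the replicate block, the Hsp70 pair summed, salivary genes and Rn45s left out, and each library left out in turn. The replicate block was fitted to all 12 libraries together, so it also covered the comparisons that the rule did not take as paired. On simulated counts of the basal comparison (14762 genes), edgeR found 14 of 100 changes of 2-fold and 84 of 100 of 4-fold. For the luminal comparison (14713 genes) it found 21 and 86 of 100. Most simulated 2-fold changes were missed in both comparisons. Reading frames were taken from GENCODE transcripts of GRCm38.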

Additional observations from a re-analysis of the deposited data

How the results depend on the processing

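Over 3230 values of single members under the alternatives, 3126 kept their side of the threshold, 43 lost a call and 61 gained one. Of values called in either fit, 0 changed sign. Among the 3126, 93 values without a call changed sign. Between genotypes, members called lower in luminal cells numbered 0 in the reported fit, 2 under DESeq2 (Dusp2 and Hsp90aa1), 1 with the replicate block, 9 with control replicate 3 of both cell types left out (chosen after seeing the data), and 0 to 1 with 1 library left out. Over all genes, in either direction, the reported fit called 451, DESeq2 1089, the block 1097 and the fit without both control libraries 1097. In luminal against basal controls, where 2 members were called higher and 5 lower, DESeq2 gave 4 and 9, fitting only the groups compared gave 1 and 3, the replicate block gave 6 and 8 (adding Jun, Klf2, Ier2 and Ier5, and Fosl1, Csrnp1 and Dusp1), leaving out both control libraries of number 3 gave 9 lower, and leaving out 1 library gave 1 to 4 higher and 2 to 9 lower. Over all genes, calls in either direction between luminal and basal controls numbered 4942 in the reported fit and 5473 under DESeq2. They numbered 3649 with only the groups compared, 6528 with the block and 4813 without both control libraries of number 3. In luminal against basal knockout-labelled cells, leaving out 1 library gave 10 to 17 lower. The block changed no other of these counts by over 1.5 times. With 1 library left out, the members' median log2 fold was 0.09 to 0.48 in basal cells, -0.64 to -0.28 in luminal cells, -0.96 to -0.55 for the difference between cell types, -0.40 to 0.02 for luminal against basal controls and -0.91 to -0.83 among knockout-labelled libraries. Scaling by library size alone moved the median of all genes in the last comparison to 0.15, against 0.03. The causes of these changes were not tested. In the comparisons between genotypes, most simulated 2-fold changes were not called at this depth and replication.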
